A study of Mus musculus with 20 samples.

Results

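Mouse Hepa-1 cells that had been grown with hexavalent chromium, Cr(VI), and then without it were set against cells of the same passage that were still being grown with it. The comparison takes in 4 of the 20 libraries of the series, chosen by their labels: 2 of recovered cells, grown for 20 passages in Cr(VI) and for 5 more passages free of it, and 2 of Cr(VI)-continued cells, grown in it for all 25 passages. Both groups received the solvent DMSO for 8 hours before RNA was taken. Hepa-1 is a mouse hepatoma line. It was kept in α-MEM with fetal bovine serum and passaged every 3 days. RNA was purified on columns and made into Illumina libraries. The dose of Cr(VI) reads 0.5 mM in the labels, a unit kept here as labelled although the series is titled as one of low concentrations. Library titles give 27 for what the passage field gives as 25. Control-grown cells of passage 25 with DMSO (2 libraries), the same 3 kinds of culture with 5 mM benzo[a]pyrene (B[a]P) as labelled in place of DMSO (2 libraries each), and Cr(VI)-grown and control-grown cells of passage 20 with DMSO (2 libraries each) are used beside them. The labels do not say whether replicates 1 and 2 came from separate cultures, so every p-value below measures only the spread between libraries, which may be technical. The comparison asks which transcript levels set chromium-free cells apart from cells still in chromium after a shared history of 20 passages with it.

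Chromate has the shape of sulfate and enters cells through anion and sulfate transporters. Inside the cell it is reduced by glutathione, ascorbate and other thiols, and the reduced metal forms DNA adducts, crosslinks and breaks that excision, crosslink and mismatch repair act on. Metallothioneins bind metals and are induced through the metal-responsive factor MTF1. The transcription factor ATF4 is translated when cells are short of amino acids or under stress in the endoplasmic reticulum, and it switches on genes for amino acid synthesis, uptake and tRNA charging.

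3 promoters stand for the metallothioneins and the ATF4 targets, the groups that the transcription factors above are known to act on. The windows run from 250 bases before to 50 bases after an annotated start and are RefSeq sequence of GRCm38.p6. In the first window, capitals mark the letters TGCACNC or TGCGCNC, the core of a metal response element, searched on both strands. In the other two, capitals mark TGATGNAA, the core of the element bound by ATF4 with C/EBP partners, searched on both strands. Neither search overlaps the other in its letters. The Mt1 window lies at chr8:94178839-94179138 on the plus strand, the Chac1 window at chr2:119350992-119351291 on the plus strand and the Asns window at chr6:7693160-7693459 on the minus strand.
Mt1: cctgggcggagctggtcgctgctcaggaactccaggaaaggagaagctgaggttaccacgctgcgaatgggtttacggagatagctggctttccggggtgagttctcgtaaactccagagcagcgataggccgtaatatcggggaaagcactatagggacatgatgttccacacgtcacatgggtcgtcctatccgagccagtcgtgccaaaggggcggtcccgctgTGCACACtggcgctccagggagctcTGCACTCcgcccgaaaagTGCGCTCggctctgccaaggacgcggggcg
Chac1: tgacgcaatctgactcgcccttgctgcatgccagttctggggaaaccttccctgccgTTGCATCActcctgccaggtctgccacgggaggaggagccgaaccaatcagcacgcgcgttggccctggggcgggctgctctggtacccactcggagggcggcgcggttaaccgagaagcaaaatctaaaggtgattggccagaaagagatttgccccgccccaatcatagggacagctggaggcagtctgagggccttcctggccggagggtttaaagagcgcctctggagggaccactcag
Asns: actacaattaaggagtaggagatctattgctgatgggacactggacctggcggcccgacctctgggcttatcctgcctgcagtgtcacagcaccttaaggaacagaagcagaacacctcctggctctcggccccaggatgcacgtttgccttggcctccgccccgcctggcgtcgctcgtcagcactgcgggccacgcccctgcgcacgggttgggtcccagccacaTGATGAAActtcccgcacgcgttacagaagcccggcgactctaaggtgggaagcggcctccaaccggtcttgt

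With the start base of the window as the first positive position and no base numbered 0, the metal response letters begin at -23, 3 and 21 in Mt1. The annotated Mt1 gene begins at position 94178883 of chromosome 8, before the start base of this window. The Mt1 positions thus count from a later start than that of the gene. The ATF4 letters begin at -193 in Chac1, where they stand on the minus strand, and at -23 in Asns. Of the metal response genes with a window, 7 of 14 (50%) held the metal response letters, against 38.9% of the 10709 tested genes with a window. Of the ATF4 genes, 7 of 19 (36.8%) held the ATF4 letters, against 3.14% of those 10709 genes. A match describes the sequence and is not a bound site.

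The recovered libraries held 27076914 and 30457749 counts and the Cr(VI)-continued libraries 36362892 and 24866550, where replicate 1 is given first here and in every pair of values below. The 100 most abundant genes took 20.6% and 31.5% of the counts in recovered cells, and 26.0% and 34.3% in Cr(VI)-continued cells. Replicate 2 stood apart from replicate 1 in the same way in all 6 passage 25 groups: the deviations of replicate 2 from replicate 1 correlated across genes with r between 0.884 and 0.954 over the 15 pairs of groups. Libraries were therefore paired by replicate number, as a block in the fit. The pairs were unequal. In pair 1, 1302 of 13692 genes (9.51%) differed by more than 2-fold between recovered and Cr(VI)-continued cells, against 101 (0.738%) in pair 2, and across genes the differences of the pairs correlated with r = 0.265. Levels below are CPM, the counts scaled to library size by TMM, and differences are log2 fold changes of recovered over Cr(VI)-continued cells, with their standard error.

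No gene differed between recovered and Cr(VI)-continued cells past an adjusted p of 0.05 in edgeR's quasi-likelihood test over 13692 genes (0%); the smallest adjusted p was 0.421. At an unadjusted p under 0.05 there were 1612 genes (11.8%), of which 445 (3.25%) were higher in recovered cells and 1167 (8.52%) lower. DESeq2 with the same block called 3 genes, Akap5, Lrrc17 and Elobl, all lower in recovered cells, with adjusted p of 0.00818, 0.0143 and 0.0303. The fit without the block left 45 genes at an unadjusted p under 0.05. Everything that follows is therefore a description of levels, and the genes are those with the lowest p in each direction, or of fixed lists. Where the values of both groups did not overlap, recovered cells were the higher group at 974 genes (7.11%) and the lower group at 683 (4.99%).

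Akap5 (chr12:76324617-76334517), a scaffold that anchors protein kinase A and other signalling enzymes at the membrane, had the lowest p. It stood at 11.8 and 53 CPM in recovered cells, against 55.0 and 132.5 CPM in Cr(VI)-continued cells and 12.1 and 60.7 CPM in control cells. Both recovered values lay below both Cr(VI)-continued values and close to the control value of their replicate. The log2 fold change was -1.79 ± 0.34, or 3.45-fold lower, lower in both pairs, with an unadjusted p of 1.51e-04 and an adjusted p of 0.421. Lrrc17 (chr5:21543527-21575911), a secreted protein with leucine-rich repeats, stood at 13.3 and 61.6 CPM in recovered cells, against 61.7 and 150.9 CPM in Cr(VI)-continued cells and 12.8 and 67.6 CPM in control cells. Its pattern was that of Akap5, with a log2 fold change of -1.78 ± 0.35. Elobl (chr11:88964658-88966931) was at 0.769 and 2.41 CPM in recovered cells, against 3.99 and 8.28 CPM in Cr(VI)-continued cells, a log2 fold change of -2.0 ± 0.40 at a low level.

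The other 9 genes with the lowest p among those lower in recovered cells had log2 fold changes between -1.72 (Clec2d, a ligand of an inhibitory receptor of natural killer cells) and -0.79 (Cyp21a1, a steroid hydroxylase). Sod3, the extracellular superoxide dismutase, was at 11.3 and 29.0 CPM in recovered cells, against 32.4 and 55.3 CPM in Cr(VI)-continued cells and 29.0 and 44.5 CPM in control cells. Within each replicate number the recovered value thus lay below the control value too. Cyp21a1 was at 60.1 and 94.8 CPM in recovered cells, against 100.1 and 169.5 CPM in Cr(VI)-continued cells and 56.6 and 75.4 CPM in control cells. Zbtb48, a zinc finger protein that binds telomeres, was at 8.96 and 15 CPM in recovered cells, against 15.6 and 30.1 CPM in Cr(VI)-continued cells. Ephb6, an ephrin receptor without kinase activity, was at 1.51 and 3.22 CPM in recovered cells, against 4.75 and 6.90 CPM in Cr(VI)-continued cells. Of the 12 genes, 9 did not overlap between the groups, against 4.99% of all genes, but they were chosen for a low p on the same values. Bc1, a short noncoding RNA known from neurons, and Rassf7 were among those that did. Prrg2, a membrane protein with a Gla domain, had a log2 fold change of -1.19. All 12 had more CPM in replicate 2 than in replicate 1 of both groups, as 40.2% of all genes tested had.

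Among genes higher in recovered cells, Lcp1 (chr14:75131105-75230842), the actin-bundling protein L-plastin, had the lowest p. It stood at 14.9 and 10.8 CPM in recovered cells, against 5.35 and 4.53 CPM in Cr(VI)-continued cells and 5.08 and 5.89 CPM in control cells. Recovered cells thus held more than both other groups in each replicate, and the log2 fold change against Cr(VI)-continued cells was 1.37 ± 0.31, with an unadjusted p of 6.57e-04 and an adjusted p of 0.421. Eprs, which charges the tRNAs of glutamate and proline, was at 225.9 and 109.3 CPM in recovered cells, against 97.2 and 71.2 CPM in Cr(VI)-continued cells and 136.2 and 109.4 CPM in control cells. Its log2 fold change was 0.94 ± 0.25, and its replicate 2 in recovered cells matched the control value. Socs2, a suppressor of cytokine and growth hormone signalling, was at 7.81 and 1.73 CPM in recovered cells, against 1.76 and 0.883 CPM in Cr(VI)-continued cells, higher in each pair though the groups overlapped. F5 (coagulation factor V), Swap70 (a guanine nucleotide exchange factor) and Morc4 (a chromatin-associated ATPase) had log2 fold changes of 1.37 ± 0.37, 1.06 ± 0.29 and 0.85 ± 0.24, without overlap. The remaining 6 entries were X-linked copies with identical counts (Gm10058, Gm10096, Gm10486, Gm14819, Gm14632 and Gm10230), which amount to 1 measurement of 17.2 and 4.34 CPM in recovered cells, against 7.03 and 1.88 CPM in Cr(VI)-continued cells. Reads shared between such copies cannot be assigned to 1 of them.

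**Figure D1:**
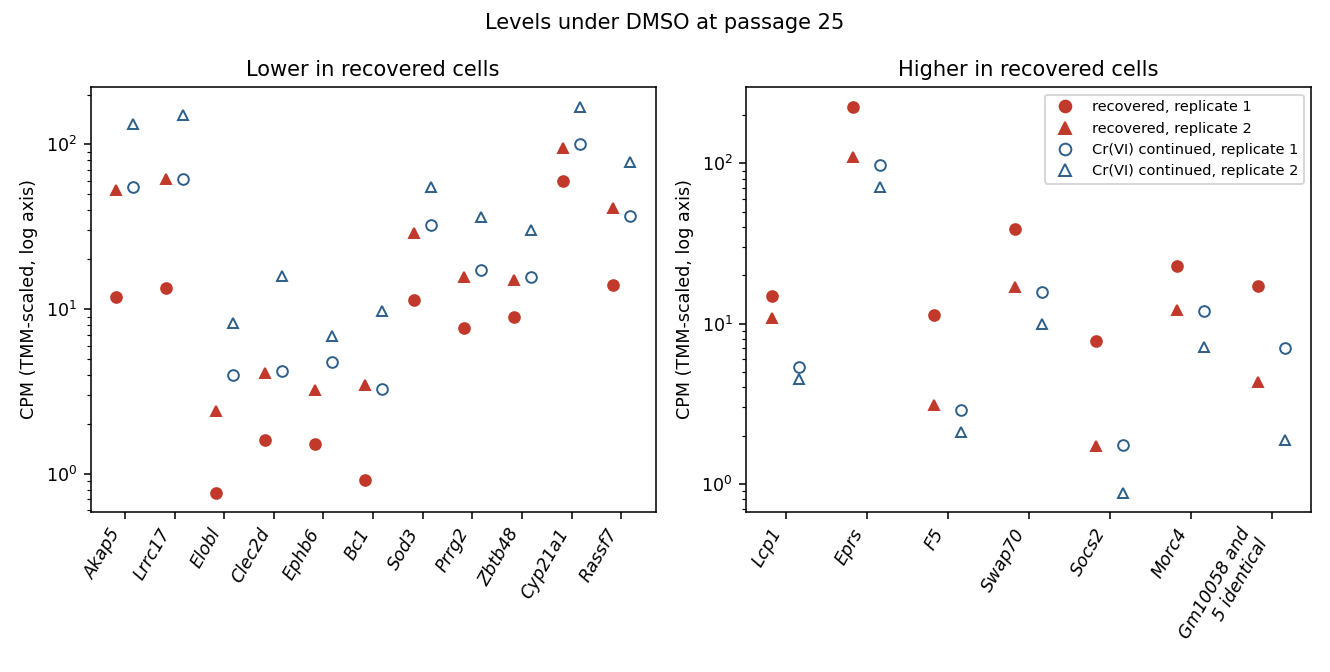
CPM (counts scaled to library size, log axis) of the genes with the lowest p in each direction, 11 lower in recovered cells and 7 entries higher, the identical X-linked copies drawn once. Filled red symbols are recovered libraries and open blue symbols Cr(VI)-continued libraries, circles replicate 1 and triangles replicate 2; Akap5 stands at 11.8 and 53 CPM in recovered cells, against 55.0 and 132.5 CPM in Cr(VI)-continued cells.

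The plot of levels shows that the replicate difference within a group was often as large as the difference between groups. The plot of the pairs against each other sets the differences of every gene side by side.

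**Figure D2:**
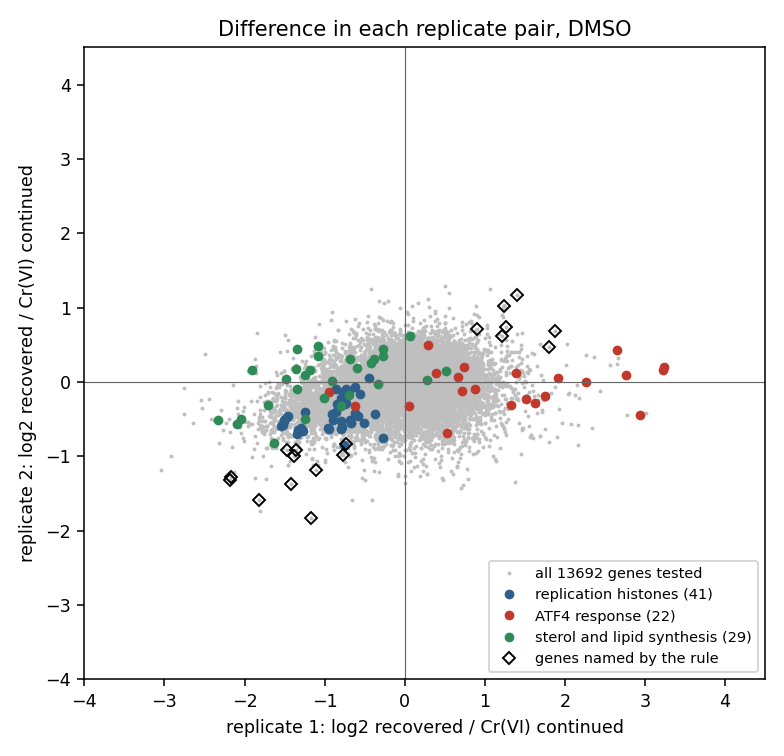
Log2 difference of recovered over Cr(VI)-continued cells in replicate pair 1 (horizontal axis) and pair 2 (vertical axis), on CPM plus 0.5, for all 13692 genes (grey), 41 replication histone genes (blue), 22 ATF4 genes (red), 29 sterol and lipid synthesis genes (green) and the named genes (diamonds). The histone genes lie below 0 in both pairs with 1 exception, whereas the ATF4 and sterol genes spread along pair 1 and sit around 0 in pair 2.

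Metal handling genes showed no common direction. Over 17 tested members the median log2 fold change was 0.00, against -0.01 over all genes. Mt1, a metallothionein, stood at 75.4 and 190.6 CPM in recovered cells, against 153.7 and 298.6 CPM in Cr(VI)-continued cells and 92.5 and 154.2 CPM in control cells. Each recovered library held less than its Cr(VI)-continued partner, although the groups overlapped, and the log2 fold change was -0.85 ± 0.31 with an unadjusted p of 0.0174 and an adjusted p of 0.421. Mt2 was at 49.1 and 64.1 CPM in recovered cells, against 53.1 and 102.0 CPM in Cr(VI)-continued cells, a log2 fold change of -0.36 ± 0.31. Mtf1, the factor that drives both, was at -0.60 on the same scale with an unadjusted p of 0.0217, and the zinc importer Slc39a6 at 0.58 with 0.0179. The zinc exporter Slc30a1, another MTF1 target, held 10.5 and 2.62 CPM in recovered cells, against 7.11 and 1.77 CPM in Cr(VI)-continued cells.

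A list of sulfate and anion transporters, the kinds that can carry chromate, together with ascorbate carriers had a median log2 fold change of -0.10 over 9 members. Against 11.8% of all genes, 1 of the 9 had an unadjusted p under 0.05. This was the chloride-bicarbonate exchanger Slc4a2, at 62.1 and 143.9 CPM in recovered cells, against 109.6 and 171.8 CPM in Cr(VI)-continued cells. The sulfate transporter Slc26a2 held 13.0 and 7.36 CPM in recovered cells, against 15.9 and 6.4 CPM in Cr(VI)-continued cells, which gives opposite signs in the 2 pairs.

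Antioxidant genes under the factor NRF2 were split, with 15 of 31 above 0 and a median log2 fold change of -0.10. Hmox1, which degrades heme, held 66.5 and 26.0 CPM in recovered cells, against 22.6 and 30.1 CPM in Cr(VI)-continued cells, so that its log2 fold change of 0.93 ± 0.48 came from replicate 1; without that recovered library the value was -0.37. Gclc, a subunit of the enzyme that starts glutathione synthesis, was at 100.2 and 28.9 CPM in recovered cells, against 53.2 and 29.5 CPM in Cr(VI)-continued cells. Nqo1, a quinone reductase, was at 48.1 and 31.0 CPM in recovered cells, against 31.4 and 23.8 CPM in Cr(VI)-continued cells. Gpx4, which reduces lipid peroxides, had the lowest p of this list, at 511.0 and 2142 CPM in recovered cells, against 1588 and 3724 CPM in Cr(VI)-continued cells, a log2 fold change of -1.24 ± 0.48. Glutathione S-transferases had a median log2 fold change of -0.44, with -1.01 in pair 1 and -0.18 in pair 2, and 17 of 21 were below 0 against 50.7% of all genes. Gstm3 was at 19.8 and 79.1 CPM in recovered cells, against 45.0 and 108.6 CPM in Cr(VI)-continued cells, and the microsomal Mgst3 at 12.9 and 49.4 CPM in recovered cells, against 35.7 and 68.9 CPM in Cr(VI)-continued cells. For this family 3 members lower and 1 member higher in recovered cells had an unadjusted p under 0.05, against 8.52% and 3.25% of all genes. Under B[a]P the family's median was 0.21.

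Targets of the aryl hydrocarbon receptor (AHR), the receptor that B[a]P activates, had a median log2 fold change of 0.31 over 18 members. At an unadjusted p under 0.05, 0 were higher and 2 lower, against 3.25% and 8.52% of all genes. Cyp1a1, its best known target, was at 29.0 and 22.5 CPM in recovered cells, against 31.9 and 24.5 CPM in Cr(VI)-continued cells, under DMSO in both. Aldh3a1, an aldehyde dehydrogenase, was at 23.7 and 77.5 CPM in recovered cells, against 59.4 and 110.9 CPM in Cr(VI)-continued cells. Of the receptor complex, the receptor's partner Arnt had a log2 fold change of 0.41 ± 0.22. In that complex 11 of 14 members were above 0, against 49.3% of all genes. The pairs differed, with 11 of 14 above 0 in pair 1 and 7 of 14 in pair 2, against 50.5% and 44.4% of all genes. In both pairs 5 were above 0, against 27.4% of all genes. At an unadjusted p under 0.05, 0 were higher and 1 lower.

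The p53 targets were spread around the median of all genes, at 0.12 over 34 members, 0.37 in pair 1 and -0.19 in pair 2. Cdkn1a, the inhibitor of cell cycle kinases p21, was at 290.9 and 267.6 CPM in recovered cells, against 280.9 and 445.1 CPM in Cr(VI)-continued cells and 160.4 and 199.5 CPM in control cells. It was thus above control in every library of both chromium groups, and the pairs disagreed on which of the chromium groups was higher. Mdm2, the ligase that removes p53, was at 234.5 and 20.1 CPM in recovered cells, against 130.3 and 28.4 CPM in Cr(VI)-continued cells. Gdf15, a stress cytokine, was at 204.7 and 103.4 CPM in recovered cells, against 94.4 and 148.1 CPM in Cr(VI)-continued cells. Mdm2 and Gdf15 likewise had opposite signs in the pairs. Dcxr, a sugar reductase, had the lowest p of the list at 11.5 and 41.6 CPM in recovered cells, against 44.7 and 84.6 CPM in Cr(VI)-continued cells, a log2 fold change of -1.50 ± 0.39. Xpc, which recognises bulky DNA damage, was at 12.9 and 8.17 CPM in recovered cells, against 5.82 and 6.07 CPM in Cr(VI)-continued cells. In the BCL2 family the death-promoting Bad and Bak1 had log2 fold changes of -1.34 ± 0.41 and -0.88 ± 0.33. They were the 2 members of 10 with an unadjusted p under 0.05, against 11.8% of all genes.

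DNA repair lists had medians within 0.21 of 0. Excision repair had a median log2 fold change of -0.13 over 34 genes, with 2 higher and 6 lower at an unadjusted p under 0.05 (3.25% and 8.52% of all genes), among them Ercc1, part of the nuclease that cuts beside bulky lesions (-0.81 ± 0.24). Break and crosslink repair had a median of 0.12 over 45 genes, with 0 higher and 2 lower, which were Fance of the Fanconi core complex (-0.70 ± 0.27) and the histone variant gene H2ax (-0.73 ± 0.31). Mismatch repair had a median of 0.21 over 8 genes. Msh6, part of the complex that recognises mismatches, was at 57.1 and 63.5 CPM in recovered cells, against 55.9 and 41.2 CPM in Cr(VI)-continued cells and 80.4 and 68.8 CPM in control cells, a log2 fold change of 0.32 ± 0.20. Its recovered values lay above both Cr(VI)-continued values and below both control values. Translesion polymerases and their regulators had a median of 0.14 over 15 genes. Mad2l2, a subunit of polymerase zeta, was at -0.72 ± 0.29 there, and Poln, at under 1 CPM in each library, at -1.60 ± 0.85.

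Replication-dependent histone genes were lower in recovered cells in nearly every pair of values. Their proteins package newly made DNA, and their short transcripts lack introns. Of 41 tested genes, 41 had a negative log2 fold change, against 50.7% of all genes, and 40 were negative in both pairs, against 32.4% of all genes. The median was -0.83, with -0.85 in pair 1 and -0.51 in pair 2, and it was -0.42 once an offset by genomic span was applied. At an unadjusted p under 0.05 there were 25 lower in recovered cells, against 8.52% of all genes, and 19 had groups that did not overlap, against 4.99% of all genes; none passed the adjusted threshold. By class the medians were -0.50 for H1, -1.0 for H2A, -0.54 for H2B, -1.22 for H3 and -0.86 for H4. H2ac6 was at 8.40 and 21.3 CPM in recovered cells, against 21.3 and 33.1 CPM in Cr(VI)-continued cells and 10.6 and 17.8 CPM in control cells, a log2 fold change of -0.99 ± 0.27. H2ac8 was at 8.10 and 21.2 CPM in recovered cells, against 21.2 and 33.8 CPM in Cr(VI)-continued cells. Against control cells, the list's median was -0.03 for recovered minus control, with -0.24 in replicate 1 and 0.21 in replicate 2, and 0.99 for Cr(VI)-continued minus control, comparisons that share libraries with each other and with the main one. At passage 20, in other libraries, Cr(VI)-grown minus control cells gave a median of 0.76. Near-identical histone genes share reads, so the members are not separate measurements.

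Genes of S phase and mitosis did not share the histone pattern. The median log2 fold change was -0.01 over 29 S phase genes and -0.04 over 27 genes of G2 and mitosis. For S phase genes the pair medians were -0.17 and 0.12. For G2 and mitosis the pairs were opposed, with medians of -0.21 and 0.15. Above 0 were 9 of 27 in pair 1, against 50.5% of all genes, and 22 of 27 in pair 2, against 44.4%. Under B[a]P, 0 of 27 were above 0 in pair 1, with a median of -0.58, against 54.1% of all genes. In B[a]P pair 2 the median was 0.07, with 16 of 27 above 0, against 56%. At an unadjusted p under 0.05, 1 S phase gene was higher and 2 were lower, against 3.25% and 8.52% of all genes. Of the genes of G2 and mitosis, 0 had such a p in either direction. Mcm5, part of the replicative helicase, was at 113.3 and 584.3 CPM in recovered cells, against 344.7 and 694.6 CPM in Cr(VI)-continued cells, and the clamp loader subunit Rfc4 at 36.5 and 30.1 CPM in recovered cells, against 25.4 and 22.1 CPM in Cr(VI)-continued cells. The centromere histone gene Cenpa and the mitotic kinase gene Plk1 had the lowest p of the mitotic list, at -0.60 and -0.56, with pair 1 at -1.15 and -1.18 and pair 2 at -0.07 and 0.02. Chromatin enzymes had a median of 0.09, with the deacetylase genes Hdac10 at -0.81 ± 0.29 and Hdac5 at -0.57 ± 0.23.

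ATF4 targets were high in 1 of the 4 DMSO libraries, recovered replicate 1. Over 22 tested members the median log2 fold change was 0.75, with 19 above 0 against 49.3% of all genes and 7 higher at an unadjusted p under 0.05 against 3.25%. In pair 1 the median was 1.36, with 20 of 22 above 0 against 50.5% of all genes, and in pair 2 it was -0.05, with 11 of 22 above 0 against 44.4%. Without recovered replicate 1 the fitted median was -0.10, and without recovered replicate 2 it was 1.43. Chac1, which breaks down glutathione, was at 33.7 and 6.64 CPM in recovered cells, against 4.54 and 6.18 CPM in Cr(VI)-continued cells and 2.79 and 4.69 CPM in control cells, a log2 fold change of 1.88 ± 0.59. Mthfd2, a mitochondrial folate enzyme, was at 113.4 and 19.9 CPM in recovered cells, against 17.6 and 14.6 CPM in Cr(VI)-continued cells and 23.7 and 20.3 CPM in control cells. In both genes the value of recovered replicate 1 stood above the other 5 libraries, and the values of replicate 2 lay closer together. Atf4 itself, at 430.9 and 80.5 CPM in recovered cells against 114.4 and 77.8 CPM in Cr(VI)-continued cells, and Asns, the asparagine synthetase, at 241.8 and 167.9 CPM in recovered cells against 91.7 and 154.2 CPM in Cr(VI)-continued cells, were chosen after their values were seen. Recovered replicate 1 was the highest library for both, by less for Asns, whose Cr(VI)-continued replicate 1 was low.

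The difference in pair 1 was alike under B[a]P. Which of the 2 libraries of that pair stood apart was not tested. In its Cr(VI)-continued library the 100 most abundant genes took 15.7% of the counts. They took 18.4% in the recovered library and 22.8% in the control library of replicate 1 under B[a]P. Recovered minus Cr(VI)-continued cells under B[a]P had an ATF4 median of 1.18 in pair 1, with 21 of 22 above 0 against 54.1% of all genes, and of 0.20 in pair 2, with 16 of 22 above 0 against 56% of all genes. In all 4 pairs, 9 of 22 members were positive (40.9%), against 12.9% of all genes. The plot of the ATF4 genes shows each member in each pair.

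**Figure D3:**
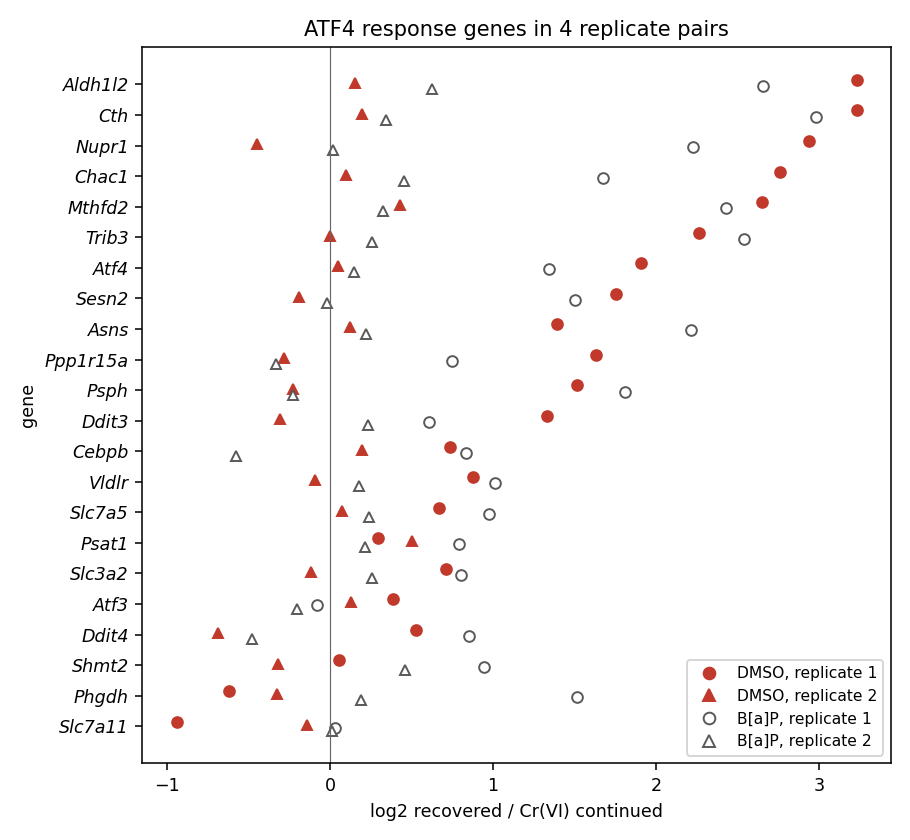
Log2 difference of recovered over Cr(VI)-continued cells for the 22 tested ATF4 genes, on CPM plus 0.5, in 4 replicate pairs: DMSO pairs in filled red, B[a]P pairs in open grey. The points of pair 1 lie mostly above 0 under both agents (20 of 22 and 21 of 22), and the points of pair 2 lie around 0.

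Chaperones of the endoplasmic reticulum had a median log2 fold change of 0.20 over 20 members. At an unadjusted p under 0.05, 2 were higher and 0 lower, against 3.25% and 8.52% of all genes. Atf6, a sensor of unfolded protein, was at 95.1 and 37.8 CPM in recovered cells, against 50.7 and 25.9 CPM in Cr(VI)-continued cells, and the chaperone Hspa5 at 578.3 and 266.6 CPM in recovered cells, against 350.9 and 203.5 CPM in Cr(VI)-continued cells. Cytosolic heat shock genes had a median of 0.15 over 17 members. Hsph1 was at 112.2 and 80.5 CPM in recovered cells, against 53.2 and 57 CPM in Cr(VI)-continued cells, and Hspa4 at 265.1 and 177.1 CPM in recovered cells, against 161.0 and 133.5 CPM in Cr(VI)-continued cells. These 4 chaperone and sensor genes were higher in recovered cells in each pair, and the values of Hsph1 and Hspa4 did not overlap between the groups.

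Sterol and fatty acid synthesis genes had mostly negative values in pair 1. Their median log2 fold change was -0.44 over 29 members, with 24 below 0 against 50.7% of all genes and 9 lower at an unadjusted p under 0.05 against 8.52%. The pair values were -1.08 in pair 1, with 3 of 29 above 0, and 0.09 in pair 2, with 18 of 29 above 0, and the fitted median was -0.06 without recovered replicate 1, -0.20 without Cr(VI)-continued replicate 1, -0.98 without recovered replicate 2 and -0.69 without Cr(VI)-continued replicate 2. Mvk, which phosphorylates mevalonate, was at 9.91 and 71.7 CPM in recovered cells, against 51.7 and 102.5 CPM in Cr(VI)-continued cells and 27.4 and 67.6 CPM in control cells, a log2 fold change of -1.38 ± 0.46. Idi1, the isopentenyl diphosphate isomerase, was at 23.3 and 5.59 CPM in recovered cells, against 73.0 and 10.3 CPM in Cr(VI)-continued cells and 162.7 and 11.8 CPM in control cells. For Idi1 both chromium groups thus stood below control in each replicate. Under B[a]P the list's median was -0.71 in pair 1 and 0.10 in pair 2, so pair 1 stood apart there as well.

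Energy metabolism genes had more negative values in pair 1 than in pair 2. The pair medians were -0.76 and -0.13 for hypoxia and glycolysis genes and -0.56 and -0.13 for oxidative phosphorylation genes. Hypoxia and glycolysis genes had a median log2 fold change of -0.42 over 28 members, with 1 higher and 7 lower at an unadjusted p under 0.05, and oxidative phosphorylation genes one of -0.33 over 28 members, with 1 higher and 4 lower, against 3.25% and 8.52% of all genes. Aldoc, a glycolytic aldolase, was at 3.58 and 13.3 CPM in recovered cells, against 13.2 and 21.4 CPM in Cr(VI)-continued cells, and the lactate exporter Slc16a3 had a log2 fold change of -1.27 ± 0.48 at under 2 CPM. Of the respiratory chain, Uqcrc1 (complex III) was at 152.4 and 711.1 CPM in recovered cells, against 482.4 and 1036 CPM in Cr(VI)-continued cells, whereas Ndufs1 (complex I) was at 132.4 and 80.3 CPM in recovered cells, against 91.3 and 57 CPM in Cr(VI)-continued cells. Under B[a]P the medians were 0.14 for both lists. Fat oxidation genes had a median of 0.13 over 15 members, with 12 above 0 and 3 below. At an unadjusted p under 0.05, 3 were higher and 1 lower, against 3.25% and 8.52% of all genes. The acyl-CoA thioesterases Acot2 and Acot1 had the lowest p among them: Acot2 was at 17.5 and 2.62 CPM in recovered cells, against 2.54 and 2.15 CPM in Cr(VI)-continued cells, and Acot1 at 5.68 and 4.51 CPM in recovered cells, against 1.76 and 3.04 CPM in Cr(VI)-continued cells.

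Liver markers of a hepatoma were present in both groups. Alb, serum albumin, was at 1528 and 4502 CPM in recovered cells, against 2521 and 3505 CPM in Cr(VI)-continued cells, and Afp, the fetal albumin relative, at 133.9 and 300 CPM in recovered cells, against 189.5 and 302.0 CPM in Cr(VI)-continued cells. The hepatoma marker list summed to 3409 and 9859 CPM in recovered cells, against 6122 and 10250 CPM in Cr(VI)-continued cells; its defining member Apoa1 had no count in these 4 libraries, and Krt8, a keratin, had a log2 fold change of -0.94 ± 0.39. Secreted hepatocyte proteins had a median log2 fold change of -0.26 over 17 members. At an unadjusted p under 0.05, 1 was higher and 3 were lower, against 3.25% and 8.52% of all genes. Hpx, the heme carrier hemopexin, was at 1.33 and 5.03 CPM in recovered cells, against 5.22 and 8.94 CPM in Cr(VI)-continued cells, and Apoa2 at 2.07 and 6.16 CPM in recovered cells, against 5.53 and 12.5 CPM in Cr(VI)-continued cells. Hepatocyte transcription factors and metabolic genes had a median of -0.08 over 14 members, with 0 at that p in either direction. Marker lists of other cells had unequal sums, carried by a few genes: macrophage markers at 67.1 and 104.7 CPM in recovered cells, against 96.5 and 127.0 CPM in Cr(VI)-continued cells, mostly Cd14 and Csf1r, with Clec4f, Marco and Tyrobp at 0 and Ptprc and Itgam at under 1 CPM, and bile duct markers at 666.1 and 1550 CPM in recovered cells, against 1068 and 1907 CPM in Cr(VI)-continued cells. In the bile duct list the keratin Krt7 alone held 397.9 and 1271 CPM in recovered cells, against 837.0 and 1652 CPM in Cr(VI)-continued cells, and Epcam, Cftr and Sctr were at under 1 CPM. Stellate and fibroblast markers summed to 1390 and 1373 CPM in recovered cells, against 1056 and 1369 CPM in Cr(VI)-continued cells, with Lum, Lrat and Thy1 at 0, and endothelial markers to 13.7 and 24.9 CPM in recovered cells, against 20.0 and 30.5 CPM in Cr(VI)-continued cells. Their part in the results was not tested, and in bulk RNA fewer cells of a type and less RNA per cell cannot be told apart.

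Epithelial adhesion genes included the tight junction gene Cldn3, at 118.8 and 458.9 CPM in recovered cells, against 337.5 and 698.0 CPM in Cr(VI)-continued cells. The desmosomal Dsp was at 64.3 and 29.6 CPM in recovered cells, against 36.1 and 22.3 CPM in Cr(VI)-continued cells. At an unadjusted p under 0.05, 1 of 15 was higher and 2 lower, against 3.25% and 8.52% of all genes. Interferon-stimulated genes had a median log2 fold change of -0.32 over 29 members. Of these, 22 were below 0 and 7 above it, where 49.3% of all genes were above 0. At that p 2 were lower, against 8.52% of all genes: the RNA sensor Oas1a at -0.97 ± 0.35 and Mx1 at -1.10 ± 0.43. NF-kB and cytokine genes had a median of -0.29 over 22 members, with the adhesion receptor Vcam1 at 0.61 ± 0.24. Matrix genes had a median of 0.17 over 26 members, and their lowest p was that of the growth factor Tgfb1, at -0.81 ± 0.28. Immediate early genes had a median of 0.15 over 20 members, with Fos at 0.83 ± 0.31 and Jund at -0.75 ± 0.31. Clock genes had a median of 0.24 over 17 members; Ciart, a clock repressor, was at 15.9 and 2.13 CPM in recovered cells, against 2.10 and 1.60 CPM in Cr(VI)-continued cells, and the output factor Dbp at -0.74 ± 0.28. Fragile site genes, which span very long stretches of the genome, had a median of 0.19 over 11 members, with the receptor phosphatase Ptprg at 0.61 ± 0.25 and Immp2l at -1.21 ± 0.53. The plot of list medians gives all 37 lists.

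**Figure D4:**
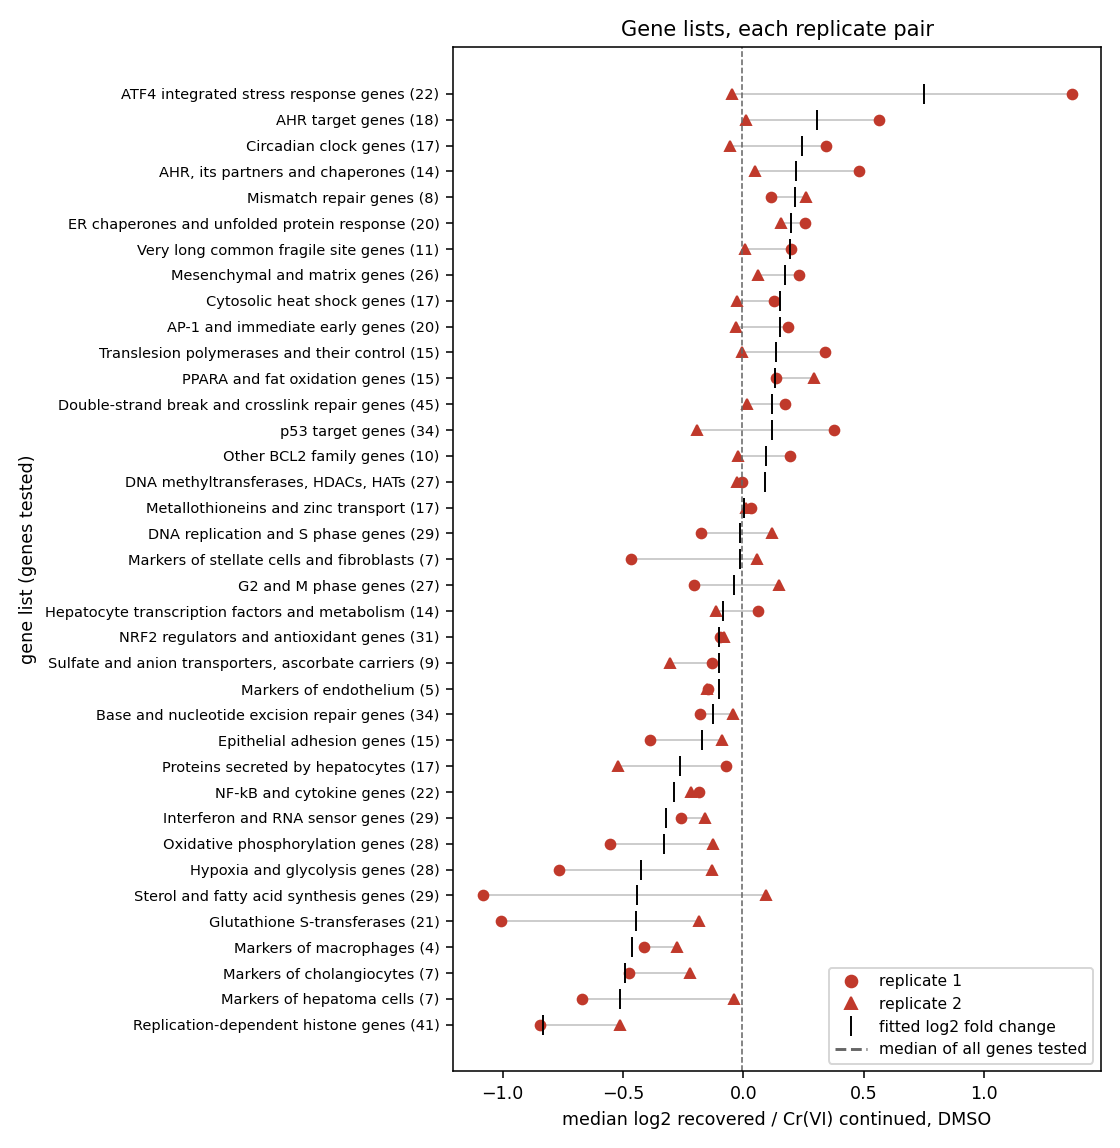
Median log2 difference of recovered over Cr(VI)-continued cells for each of the 37 gene lists, with pair 1 as a circle, pair 2 as a triangle and the fitted value as a tick; the dashed line is the median of all genes (-0.01). The histone list lies below 0 in both pairs (-0.85 and -0.51), while the ATF4 list (1.36 and -0.05) and the sterol list (-1.08 and 0.09) depart from 0 in pair 1.

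The same contrast in the B[a]P libraries uses other libraries of the same 2 kinds of culture. No gene passed the adjusted threshold there (0%), and 874 genes (6.38%) had an unadjusted p under 0.05. The difference between the DMSO and the B[a]P contrast passed at no gene either (0%), with 477 genes (3.48%) at an unadjusted p under 0.05. Of the 12 lowest-p genes lower in recovered cells under DMSO, 11 were also negative under B[a]P, against 44.4% of all genes, and 9 were negative in both B[a]P pairs, against 22.3%. Sod3 and Rassf7 were negative in 1 of those pairs, and Ephb6, at 0.04, was the positive one. Akap5 and Lrrc17 were at -0.60 and -0.62 under B[a]P, smaller in size than under DMSO by a difference with unadjusted p of 0.0245 and 0.0353 and adjusted p of 0.977. All 12 named higher entries, which include the 6 identical ones, were positive in both B[a]P pairs, against 32.6% of all genes. Lcp1, at 16.2 and 9.78 CPM in recovered cells against 4.6 and 6.48 CPM in Cr(VI)-continued cells under B[a]P, had a log2 fold change of 1.21 ± 0.30 there with an unadjusted p of 0.00161. Socs2 was at 1.40 ± 0.45 and Eprs at 0.68 ± 0.25 under B[a]P, and Zbtb48, lower in recovered cells in all 4 pairs, at -0.68 ± 0.22.

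Some groups differed more between the agents. The histone median was -0.06 under B[a]P, and the difference of the contrasts had a median of -0.75, with 16 of 41 genes at an unadjusted p under 0.05 for that difference, against 3.48% of all genes. All 8 H4 genes were negative in all 4 pairs, against 9.96% of all genes, while all 10 H3 genes were positive in B[a]P pair 2. Mt1 was at 74.5 and 279.5 CPM in recovered cells, against 72.0 and 280.2 CPM in Cr(VI)-continued cells under B[a]P, with log2 differences of 0.05 and -0.00 in the pairs. The difference of its contrasts was -0.86 ± 0.44, with an unadjusted p of 0.0694.

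Set beside control cells, the named lower genes had recovered-minus-control log2 fold changes between -1.0 (Sod3) and 0.35 (Clec2d), and Cr(VI)-continued-minus-control values between 0.23 (Sod3) and 2.07 (Clec2d); these share libraries with the main comparison. In the passage 20 libraries, which share none, Cr(VI)-grown minus control cells was positive at 8 of the 12, against 48.4% of all genes, and stood at 2.11 for Akap5, 2.02 for Lrrc17 and 1.07 for Mt1. Over all 1167 genes lower in recovered cells at an unadjusted p under 0.05, 81.3% were positive at passage 20. Of the 445 higher ones, 71.9% were negative at passage 20, against 51.6% of all genes, but of the 12 lowest-p higher entries, which include the 6 identical ones, 5 were negative and 7 positive.

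Genes that cover little of the genome stood lower in recovered cells than genes that cover much. The median log2 fold change was -0.37 over 1091 genes of under 3 kb, -0.23 over 2764 genes of 3 to 10 kb, -0.03 over 4588 of 10 to 30 kb, 0.11 over 3688 of 30 to 100 kb, 0.18 over 1257 of 100 to 300 kb and 0.15 over the 258 longer ones. The medians ran from -0.31 to 0.22 in pair 1 and from -0.24 to 0.09 in pair 2, in each pair rising with span up to 300 kb. The longest class was at 0.11 in pair 1, below the class of 30 to 100 kb, and highest in pair 2, and under B[a]P the medians ran from -0.09 to 0.19. The share at an unadjusted p under 0.05 and lower in recovered cells was 21.5% in the shortest class and 0.775% in the longest. The replicates differed along the same line, since replicate 2 minus replicate 1 had a median of 0.39 in recovered cells and 0.31 in Cr(VI)-continued cells for the shortest class, and -0.44 and -0.36 for the longest. The histone genes had a median span of 0.490 kb, and the 1167 lower genes one of 7.80 kb, against 20.9 kb over all genes and 33.5 kb over the 445 higher ones. With an offset that removes the trend with span from each library, a setting chosen after seeing the data, the split at an unadjusted p under 0.05 was 747 higher and 624 lower, and the histone median was -0.42. The cause of the trend was not tested.

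**Figure D5:**
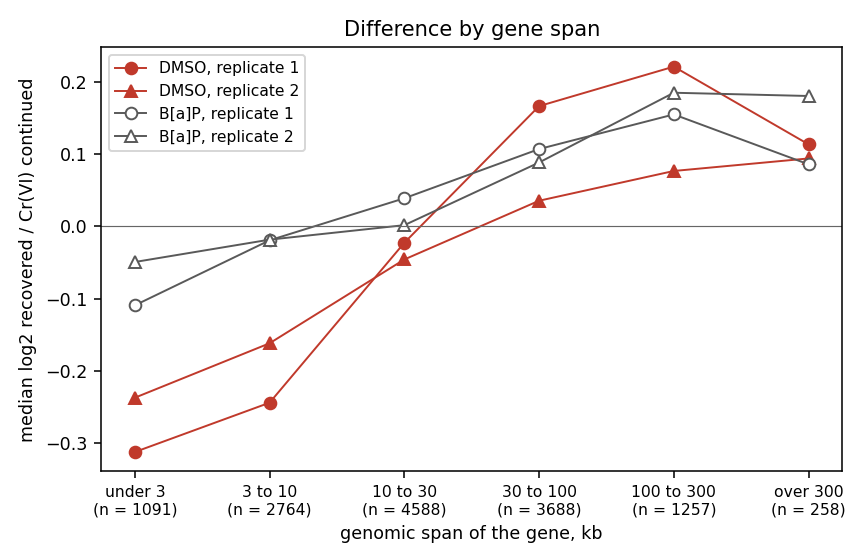
Median log2 difference of recovered over Cr(VI)-continued cells by genomic span of the gene in kb, for each replicate pair. In both DMSO pairs the medians lie below 0 for genes of under 10 kb and above 0 for genes of over 30 kb, from -0.31 in pair 1 and -0.24 in pair 2 for the shortest class.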

How the data were processed

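The deposited table holds raw counts of reads per Entrez gene ID, 1 column per library, each traced to its label. Tools listed in the submitters' processing notes are bcl2fastq, TopHat, CASAVA 1.8 and DESeq, with build mm10 and no roles. Strand use, gene models and the read counter were not given, so antisense partners and near-identical copies cannot be told apart. Of 23373 gene IDs, 23275 matched RefSeq symbols of GRCm38.p6 (mm10), and 3210 had no count.

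From these deposited counts, genes were fitted with edgeR 4.0.16 (R 4.3.3) on the 12 libraries of passage 25, which held 21795837 to 37930720 counts: filterByExpr, TMM, 1 mean per group and the replicate number as a block, which left 5 residual degrees of freedom. Quasi-likelihood tests were two-sided and adjusted by Benjamini-Hochberg over 13692 genes, with a threshold of 0.05. The block was used because same-numbered libraries deviated together, with every correlation above 0.1, the recovered and Cr(VI)-continued DMSO groups at r = 0.898. Pair differences are log2 of CPM plus 0.5. Passage 20 was fitted with all 20 libraries.

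Genes were named as the 12 lowest p in each direction with 1 sign in both pairs and a mean of at least 1 CPM, none having passed; further named were up to 2 lowest p of each of 37 lists and a fixed set. Some of these are not reported here. Members and lists were chosen with earlier results of these data known. The model was tested on simulated counts. Alternatives were DESeq2 1.42.0, no block, RLE scaling, no filter, the 4 libraries alone, all 20 libraries and each library left out; an offset by gene span and the mean of the DMSO and B[a]P contrasts were chosen after seeing the data.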

Additional observations from a re-analysis of the deposited data

How the results depend on the processing

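The count of genes past the adjusted threshold was 0 in the edgeR fits without the block, with all 20 libraries, with RLE scaling, without the filter, with the span offset and for the mean of the DMSO and B[a]P contrasts. It was 3 with DESeq2 and the block, and 182 (34 higher and 148 lower) in the 4 libraries alone, a fit with 1 residual degree of freedom. Leaving out 1 library gave 0 to 2, the 2 being Slc6a9 and Chac1, higher, without recovered replicate 2; there and in the other such fits the lone library is assumed to vary like the other groups. At an unadjusted p under 0.05, against 1612 genes (445 higher and 1167 lower), the fit without the block as pairing gave 45. Leaving out 1 library gave 205 to 1893, with 205 without recovered replicate 1 and 294 without Cr(VI)-continued replicate 1. The split was 860 higher and 986 lower with all 20 libraries, 881 and 985 for the mean of the contrasts, 747 and 624 with the span offset and 467 and 1145 with RLE. The counts under B[a]P and for the difference of the contrasts were 0 past the adjusted threshold in every alternative run for them.

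Some small log2 fold changes turned their sign. Alb was 0.00102 without the block, Slc26a2 was 0.0140 with all 20 libraries, 0.0572 with the span offset and 0.0178 for the mean of the contrasts, and Mt2 was 0.0228 with the span offset. With 1 library left out the ranges were -0.69 to 0.35 for Alb, -0.27 to 0.20 for Slc26a2, -0.47 to 0.24 for Cyp1a1, -0.84 to 0.17 for Cdkn1a and -2.26 to 3.15 for Poln. Without recovered replicate 1, which gave the lowest value of each, Gclc was -0.0444, Hmox1 -0.37, Mdm2 -0.38 and Gdf15 -0.66, and the highest values were 0.94, 1.71, 0.74 and 1.26. The cause was not tested. Over the alternatives run, Akap5 stayed between -2.11 and -1.19, Lcp1 between 1.16 and 1.57 and Mt1 between -1.04 and -0.41.

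With 2 libraries a group, the number of libraries sets the precision. Most list values differ between the replicate pairs, and the ATF4 and sterol medians of -0.10 and -0.06 without recovered replicate 1 show how far 1 library sets them.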

Other observations

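The genes of this section were chosen after their values were seen, and none passed the adjusted threshold. Cytosolic aminoacyl-tRNA synthetases, which load amino acids onto tRNAs, had a median log2 fold change of recovered over Cr(VI)-continued cells of 0.48 over 20 genes, with 0.62 in pair 1 and 0.19 in pair 2 under DMSO. At an unadjusted p under 0.05, 9 were higher and 1, Farsa, lower, against 3.25% and 8.52% of all genes, and 11 of 20 (55.0%) were positive in all 4 replicate pairs, 2 under DMSO and 2 under B[a]P, against 12.9% of all genes. Lars, for leucine, was at 137.1 and 54.1 CPM in recovered cells, against 45.1 and 41.1 CPM in Cr(VI)-continued cells. Rars, for arginine, was at 198.6 and 109.2 CPM in recovered cells, against 95.9 and 75.0 CPM in Cr(VI)-continued cells. Vars and Qars, for valine and glutamine, had negative values of -0.69 and -0.58. The set includes Eprs, named above for its low p. Genomic span differed within the set. Farsb, Eprs and Lars, all higher, span 70.9, 66.9 and 59.9 kb, and Qars, Farsa and Vars span 7.94, 12.3 and 15.4 kb. Nars and Tars, also higher, span 16.9 and 16.0 kb. The part of the trend with span in these values was not tested.

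Akap5 and Lrrc17 kept 1 ratio. Over the 12 passage 25 libraries Akap5 was between 8.09 and 132.5 CPM, while the ratio of Lrrc17 to Akap5 was between 1.00 and 1.17. Across these libraries, which share 2 replicate numbers, the log levels of Lrrc17 correlated with those of Akap5 with r = 0.999, more closely than those of any other gene tested, and those of the noncoding RNA Bc1 with r = 0.987. The genes lie on different chromosomes, 12 and 5, and reads shared between their loci were not examined.

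Of 11595 genes with a mean of at least 1 CPM, 15 were at least 1.5-fold higher and 8 at least 1.5-fold lower in recovered cells in each of the 4 pairs. The higher ones were Socs2, the peptidase gene Enpep, the inositol phosphatase gene Synj2, Arhgap29, Elmo1 and 10 X-linked entries of a family of near-identical copies. Enpep was at 2.10 and 1.77 CPM in recovered cells, against 0.892 and 0.718 CPM in Cr(VI)-continued cells under DMSO. The lower ones were Zbtb48, Tppp3, Ddah2, Snhg20, Tacc1, Atg9b, Apbb3 and Trpm1. Tppp3, a microtubule-binding protein, was at 3.49 and 8.33 CPM in recovered cells, against 12.8 and 21.4 CPM in Cr(VI)-continued cells. Small nucleolar RNAs had a median log2 fold change of -0.47 over 67 genes, and of -1.28 under B[a]P. Under DMSO 53 of the 67 were negative, against 50.7% of all genes, but the pair medians were -0.10 and -0.31 and 36 of 67 were negative in both pairs, against 32.4%.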
